A study of Mus musculus with 12 samples.

Results

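In cells of mouse acute lymphoblastic leukaemia of the B lineage (B-ALL), 44 genes were expressed in the DKO line and silent in the TKO line. DKO cells lack Bax and Bak (genotype Bax-/-,Bak-/-), and TKO cells lack Mcl-1 as well (Bax-/-,Bak-/-,Mcl-1-/-), so the loss of both death effectors is common to every library. Each line was held for 24 h in regular medium or in low glucose medium, with 3 RNA-seq libraries per combination and 12 in all. The members were chosen by their measured counts. A gene was taken when it had at least 3 CPM (counts scaled to a library total of 1000000) in each of the 6 DKO libraries and at most 3 raw counts in each of the 6 TKO libraries. This held for 44 of the 24982 genes in the table, or 0.468% of the 9408 genes that met the DKO minimum alone. Silent means here that rule and no more. Uty, Eif2s3y, Ddx3y and Kdm5d, all on the Y chromosome, were to be left out, and none of these 4 met the rule. The labels name a B-ALL cell line and no further line of either genotype, so the genotype and the line cannot be told apart.

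BAX and BAK are the effector proteins that open the outer mitochondrial membrane in apoptosis, and MCL-1 is an anti-apoptotic relative that restrains them and that many leukaemic B-cell precursors need to survive. The 44 genes belong to no single pathway. They encode membrane transporters and channels, adhesion proteins, receptors and secreted ligands, enzymes of glycan, lipid and vitamin metabolism, signalling proteins and nuclear proteins. Of the 44, 42 are annotated as protein coding, and H19 and BC064078 are long non-coding RNAs.

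DKO libraries totalled 45914440 to 56260867 counts in regular medium and 35758895 to 46925274 counts in low glucose, and TKO libraries totalled 25908668 to 30874107 and 22190736 to 42140396 counts. In regular medium Mcl1 had 239 ± 2.51 CPM in the DKO libraries (SD, n = 3) and 0.406 ± 0.0619 CPM in the TKO libraries, and in low glucose it had 270 ± 3.59 and 0.255 ± 0.0790 CPM. Bax and Bak1 kept counts in each line but differed between them. In regular medium the level of Bax was 17.1 ± 0.175 CPM in DKO against 6.17 ± 0.259 in TKO libraries (2.78-fold, edgeR, adjusted p = 3.54e-09). Bak1 had 16.9 ± 1.40 and 5.30 ± 0.713 CPM (3.16-fold lower, adjusted p = 1.97e-09). The deleted stretch of either gene is not given in the sources used here. All 10 markers of B-cell precursors, among them Pax5 and Ebf1, were expressed, with a summed level between 4330 and 4880 CPM in every library. Markers of other cells were near 0 except for single genes. Of 6 T-cell markers 1, the kinase gene Lck, reached 1 CPM in any library, and the list summed to between 89.3 and 100 CPM in DKO and between 8.95 and 12.9 CPM in TKO, with Cd4 at 0. Of 8 myeloid markers 2 reached 1 CPM (Lyz2 and Itgam), with sums of 3.70 to 4.53 CPM in DKO and 0.471 to 1.30 CPM in TKO and with Elane, S100a8 and S100a9 at 0. No erythroid or megakaryocytic marker of 6 reached 1 CPM (sums up to 1.02 CPM), with Hbb-bs, Hba-a1 and Pf4 at 0. Of 7 stromal and endothelial markers 1, Pecam1, reached 1 CPM, and the list summed to 91.1 to 168 CPM in DKO and 56.7 to 74.7 CPM in TKO, with Col3a1 and Dcn at 0. The part of these lists in the differences between the lines was not tested. In such bulk libraries, fewer cells that express a gene and less RNA per cell cannot be told apart.

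The 44 genes together held 310309 counts in the 6 DKO libraries and 147 counts in the 6 TKO libraries. The TKO counts were of similar number in every library, with 27, 19 and 22 in the regular-medium libraries and 28, 20 and 31 in the low-glucose libraries. Among the members, 12 had no count in any TKO library, and the highest TKO count was 1 for 14 members, 2 for 8 and 3 for 10. On the length-scaled scale of TPM (transcripts scaled to 1000000 per library), the highest value of any member in any TKO library was 0.238, for the predicted gene Gm525. In DKO the members took between 0.103% and 0.106% of all counts in regular medium and between 0.114% and 0.120% in low glucose. These values are what the rule selected and carry no test. As background, 33.4% of the 11988 genes tested between the lines were called lower in TKO in regular medium and 37.4% in low glucose, while 28.3% and 37.2% were called higher.

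**Figure D1:**
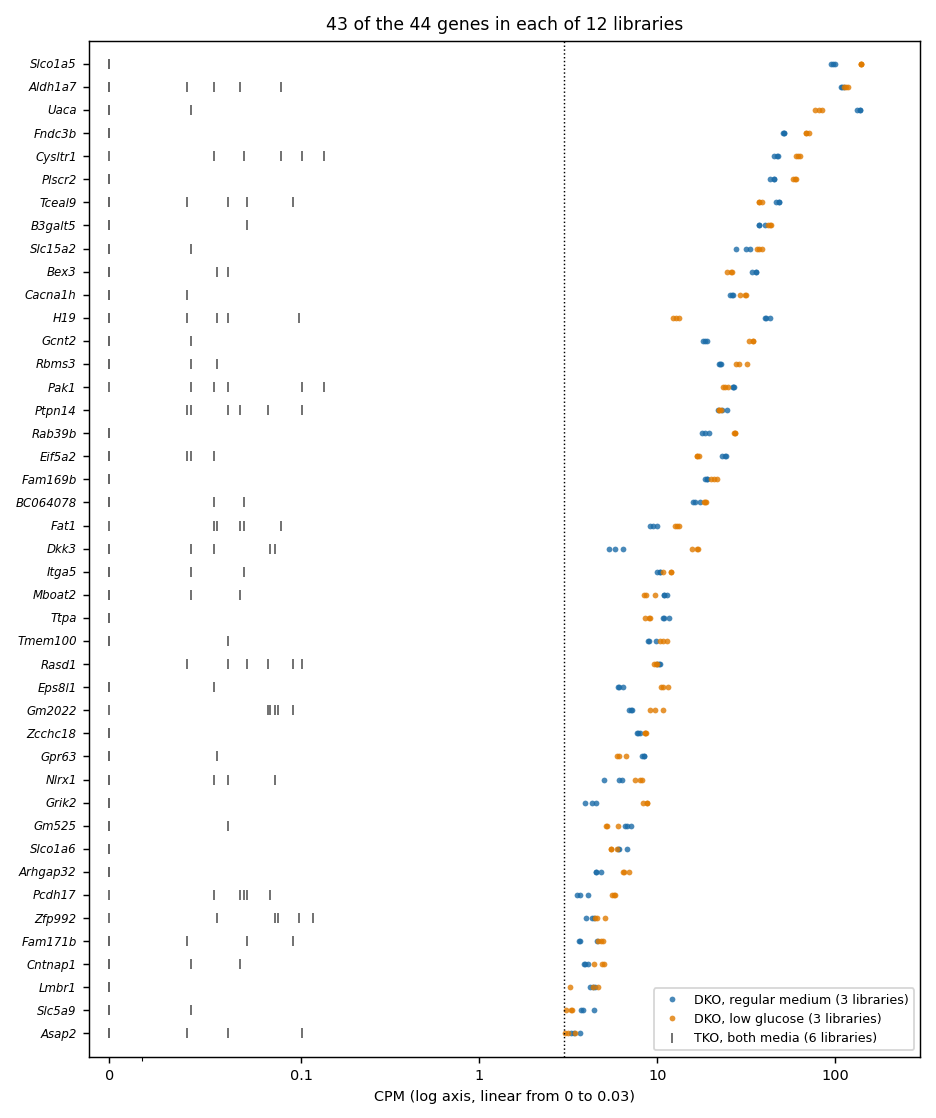
Level of 43 of the 44 genes (rows, ordered by the total of DKO counts) in each of the 12 libraries, in CPM on a log axis that is linear between 0 and 0.03. Blue and orange points are the DKO libraries in regular and low glucose medium, grey ticks are the 6 TKO libraries, and the dotted line marks the minimum of 3 CPM. Every DKO point lies to the right of that line, and every TKO tick is at 3 counts or fewer.

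Most members were of low to moderate abundance. Their median in DKO in regular medium was 7.18 TPM, against 29.7 TPM over the genes that met the DKO minimum, and 34 of the 44 lay at or below that median. The range was from 0.693 TPM for Grik2, which encodes a kainate-type glutamate receptor subunit, to 111 TPM for Tceal9, a nuclear protein gene of the TCEAL family. Among the 10 most abundant members were Tceal9, Aldh1a7 (106 ± 2.28 TPM, SD, n = 3), Bex3 (92.0 ± 3.64), Slco1a5 (68.6 ± 2.11), Uaca (53.9 ± 1.05), Plscr2 (47.2 ± 1.71), BC064078 (46.0 ± 2.26), Gm525 (39.1 ± 1.77) and H19 (35.2 ± 1.11). The 10 most abundant, and no other members, lay above the median of the expressed genes. The genes spanned a median of 34.8 kb of the genome, against 23.5 kb for the expressed genes. The rule bears on these levels, because its TKO limit is in raw counts whatever the DKO level. Abundant genes with a few TKO counts are thus left out. Plod2, for example, had 208 CPM in DKO in regular medium and a highest TKO count of 4. The level of the members beside all expressed genes is therefore a description and carries no test.

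For members with no TKO count, the fold between the lines is a lower bound taken from 3 counts over the 6 TKO libraries. Slco1a5 was at least 7460-fold higher in DKO, Fndc3b at least 3790-fold, Plscr2 at least 3270-fold and Rab39b at least 1440-fold. Uaca, with 30854 counts in DKO and 1 count in TKO, had a ratio of 21000 with a 95% counting interval from 3770 to 829000. The smallest ratio belonged to the zinc finger gene Zfp992, at 65.4 (38.3 to 123), with 13 TKO counts in all. Bounds and intervals cover counting error only.

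At the edges of the rule, the members with the lowest DKO values were Slc5a9, Asap2 and Lmbr1, with a lowest library of 3.12, 3.18 and 3.36 CPM. Trmt9b, Adprhl1 and Auts2 fell just short, with a lowest DKO library of 2.94, 2.91 and 2.90 CPM and at most 1 count in any TKO library. At the other threshold, Zfp992, Gm2022 and Cysltr1 were inside with a highest TKO count of 3 and TKO sums of 13, 12 and 11. Rbpms, Eya1 and Chst11 were outside with a highest TKO count of 4 and TKO sums of 6, 8 and 9. In all, 16 genes that met the DKO minimum had a highest TKO count of exactly 4.

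The members lay on 19 chromosomes, with 5 each on chromosomes 7, 9 and X and none on chromosomes 18 and Y. As a share of the genes that met the DKO minimum, this was 1.74% of 288 genes on the X chromosome, 0.98% of 510 on chromosome 9 and 0.723% of 692 on chromosome 7, beside 0.468% overall. These shares are descriptions of small counts with no test.

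**Figure D2:**
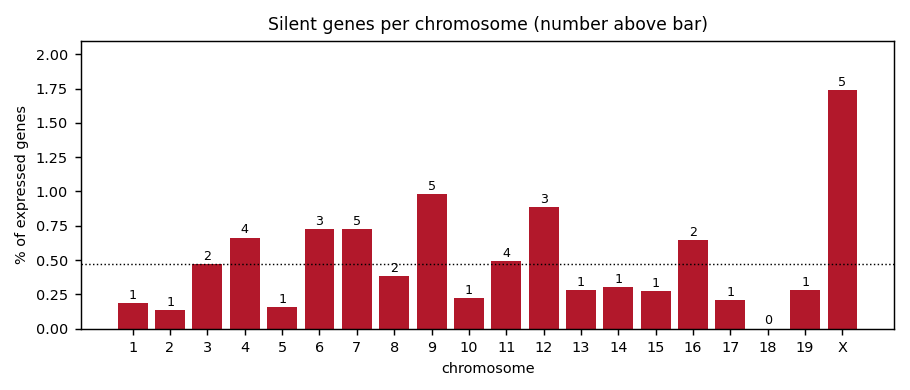
Silent genes on each chromosome as a percentage of the genes with at least 3 CPM in all 6 DKO libraries, with the number of silent genes above each bar. The dotted line is the share over all chromosomes, 0.468%, and the X chromosome has the tallest bar, 1.74% from 5 genes.

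Of the 44 members, 7 lay within 1 Mb of another. Slco1a6 and Slco1a5, neighbouring genes for organic anion transporting polypeptides on chromosome 6, were 48.05 kb apart. On the X chromosome, Tceal9 and Bex3, whose products belong to the related TCEAL and BEX families of small proteins, were 23.11 kb apart, and Zcchc18, a zinc knuckle protein gene, followed 720.4 kb after Bex3. On chromosome 11, Gm525 and Tmem100 were 937.3 kb apart. Just beyond that distance, Fndc3b and Eif5a2 on chromosome 3 were 1070 kb apart with no other gene that met the DKO minimum between them, a pair named after its values were seen. A window of 250 bases before the start of a RefSeq transcript is shown for the 3 pairs that were direct neighbours, because both genes of each pair were silent in TKO. The sequences are from RefSeq (GRCm38.p6, the assembly also called mm10), run 5′ to 3′ toward the gene, and have every CG dinucleotide in capitals. The annotated gene begins further upstream for 3 of the 6 genes, so that all 250 bases of the Fndc3b window, 245 of the Eif5a2 window and 28 of the Slco1a6 window lie within the span of the gene. The windows of Slco1a5, Tceal9 and Bex3 end where the gene begins.

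Slco1a6 (chr6:142186150-142186399, minus strand): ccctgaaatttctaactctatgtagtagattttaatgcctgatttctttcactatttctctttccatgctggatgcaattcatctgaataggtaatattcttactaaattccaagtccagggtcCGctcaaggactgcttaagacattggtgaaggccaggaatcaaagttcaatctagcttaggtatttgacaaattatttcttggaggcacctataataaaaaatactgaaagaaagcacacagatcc
Slco1a5 (chr6:142322982-142323231, minus strand): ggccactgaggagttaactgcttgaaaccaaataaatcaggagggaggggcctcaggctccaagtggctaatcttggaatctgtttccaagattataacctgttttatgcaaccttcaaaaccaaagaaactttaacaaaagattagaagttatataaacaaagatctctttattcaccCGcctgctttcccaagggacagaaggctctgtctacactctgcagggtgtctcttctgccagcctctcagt
Tceal9 (chrX:136244830-136245079, plus strand): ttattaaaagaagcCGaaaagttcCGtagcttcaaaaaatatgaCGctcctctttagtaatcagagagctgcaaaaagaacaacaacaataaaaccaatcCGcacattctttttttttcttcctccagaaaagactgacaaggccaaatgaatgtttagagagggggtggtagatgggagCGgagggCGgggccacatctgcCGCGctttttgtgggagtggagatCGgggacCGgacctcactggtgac
Bex3 (chrX:136270003-136270252, plus strand): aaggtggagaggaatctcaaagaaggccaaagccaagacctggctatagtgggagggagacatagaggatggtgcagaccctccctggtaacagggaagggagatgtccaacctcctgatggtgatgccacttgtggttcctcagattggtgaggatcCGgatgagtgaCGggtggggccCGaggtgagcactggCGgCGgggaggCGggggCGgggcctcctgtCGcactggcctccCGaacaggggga
Fndc3b (chr3:27710453-27710702, minus strand): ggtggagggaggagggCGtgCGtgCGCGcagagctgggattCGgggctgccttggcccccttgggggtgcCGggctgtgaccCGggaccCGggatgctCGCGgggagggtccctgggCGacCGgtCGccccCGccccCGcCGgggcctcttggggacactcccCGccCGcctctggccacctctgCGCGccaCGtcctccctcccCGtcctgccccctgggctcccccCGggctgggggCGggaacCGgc
Eif5a2 (chr3:28781027-28781276, plus strand): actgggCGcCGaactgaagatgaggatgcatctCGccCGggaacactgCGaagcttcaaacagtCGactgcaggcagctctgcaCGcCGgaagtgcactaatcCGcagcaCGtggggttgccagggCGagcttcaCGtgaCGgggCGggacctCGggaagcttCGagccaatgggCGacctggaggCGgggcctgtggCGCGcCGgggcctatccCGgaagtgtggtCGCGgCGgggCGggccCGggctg

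Within each pair the CG content was alike, and between pairs it was not. The windows of Slco1a6 and Slco1a5 held 1 CG each, those of Tceal9 and Bex3 held 10 and 9, and those of Fndc3b and Eif5a2 held 25 and 27. The median over 7537 expressed genes with a window was 17. Of the letters searched on both strands, TATAAA was found in the Slco1a5 window, as in 5.65% of the windows of expressed genes. GGGCGG was found in the windows of Tceal9, Bex3, Fndc3b and Eif5a2, as in 61.7% of expressed genes. CACGTG was found in the Eif5a2 window, as in 9.17%. The last 2 of these words each contain a CG. The windows of Fndc3b and Eif5a2, which hold the most CG, are those that lie within the gene span, and a match describes letters only.

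In DKO, low glucose moved most of these genes by small amounts, and more of them up than down. Of the 44 members, all of which were tested, 25 were called higher (56.8%) and 12 lower (27.3%). Over all 11432 genes tested, 38.4% were called higher and 37.8% lower, 76.2% in all, and among the genes that met the DKO minimum the shares were 38.9% and 43.0%. The median log2 change was 0.17 for the members and 0.02 over all genes tested. Large changes were few. At least 2-fold higher were 2 members, Dkk3 and Grik2, beside 4.18% of all genes tested, and at least 2-fold lower was 1, H19, beside 1.51%. With Gcnt2 and Eps8l1, 4 members were at least 1.5-fold higher (11.2% of all genes), and with Uaca 2 were at least 1.5-fold lower (8.23%). In these libraries the stromal and endothelial marker sum, carried by Pecam1, was 91.1 to 97.3 CPM in regular medium and 162 to 168 CPM in low glucose, and its part in the changes below was not tested.

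**Figure D3:**
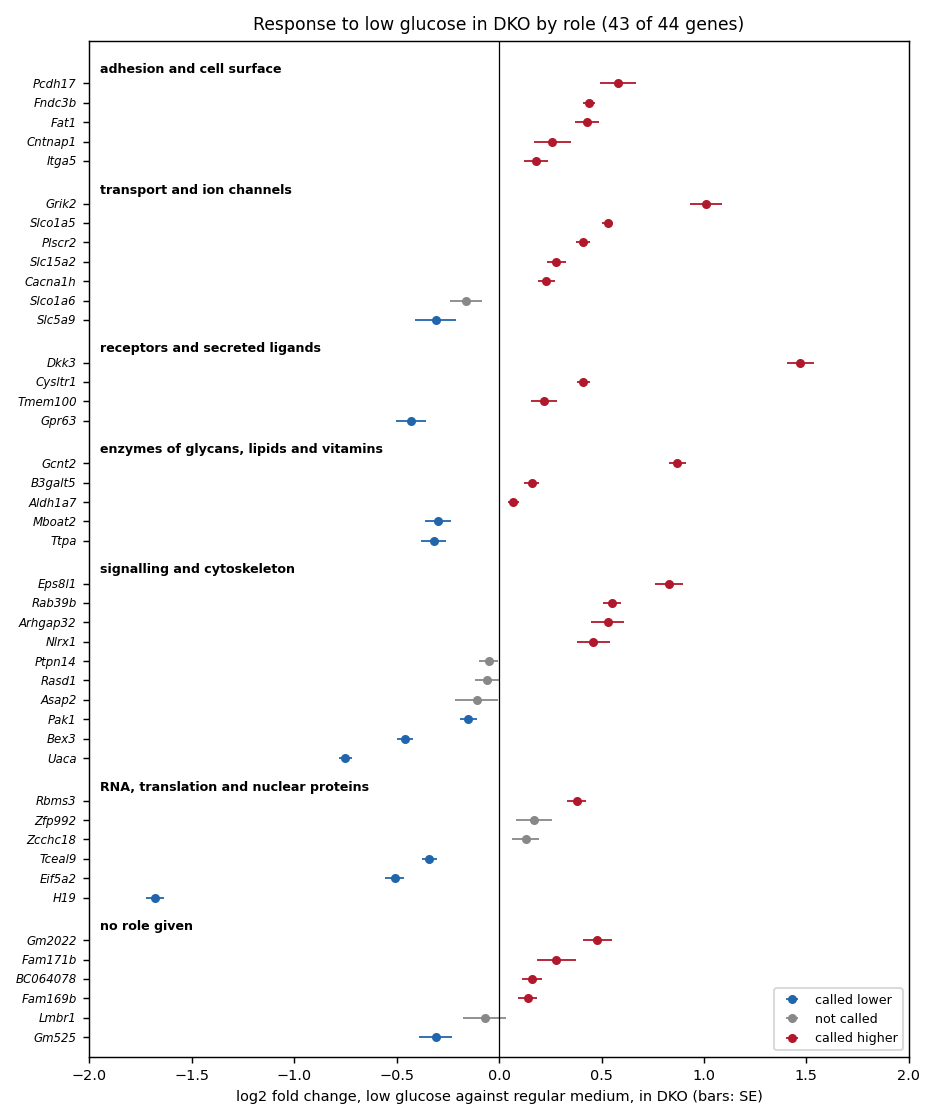
Change of 43 of the 44 genes in DKO in low glucose against regular medium (log2 fold change, points, with bars of 1 SE, 3 against 3 libraries), grouped by the role of the product. Red points were called higher, blue lower and grey not called at an adjusted p under 0.05. All 5 genes placed by hand in the adhesion and cell-surface group lie to the right of 0, and H19 lies furthest to the left at -1.68.

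The 5 genes placed by hand in the adhesion and cell-surface group were all called higher, beside 38.4% of all genes tested and 56.8% of the members. The count depends on this placing. Receptor and transporter genes are in other groups, and among these Gpr63 and Slc5a9 were called lower and some others higher. Fndc3b is among them, and a place of its product at the cell surface or a part in adhesion was not examined. Pcdh17, which encodes a protocadherin, had 3.55, 3.68 and 4.10 CPM in regular medium and 5.76, 5.68 and 5.55 CPM in low glucose. The groups did not overlap, and the change was 0.58 ± 0.0870 (log2 ± SE, adjusted p = 1.04e-06). Fndc3b, a membrane-anchored protein with fibronectin type III domains, rose from 51.1 ± 0.283 to 69.2 ± 1.58 CPM (log2 0.44 ± 0.0305, adjusted p = 3.89e-13). Fat1, an atypical cadherin gene, rose from 9.53 ± 0.423 to 12.9 ± 0.325 CPM (log2 0.43 ± 0.0584, adjusted p = 1.6e-07). Smaller rises were called for Itga5, the alpha subunit of the fibronectin receptor (log2 0.18 ± 0.0604, adjusted p = 0.00861), and for Cntnap1, a contactin-associated protein gene (0.26 ± 0.0898, adjusted p = 0.00971). The call for Cntnap1 ended without the first low-glucose library (adjusted p = 0.0557).

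Genes tied to Itga5 and Fndc3b by partnership or sequence were followed in TKO. Like the other partner genes below, they were chosen after the members were known. The comparison of the media in DKO and those between the lines share DKO libraries, so their values are given side by side only. Itgb1, the beta subunit with which the Itga5 product pairs, stayed abundant in TKO, with 304 ± 3.72 CPM in regular medium in the DKO line against 241 ± 7.0 CPM (log2 -0.34 ± 0.0369, adjusted p = 1.82e-06). Fn1, which encodes their ligand fibronectin, had 1 count in all 12 libraries. Fndc3a, the paralog of Fndc3b, was also lower in TKO but still expressed, with 24.8 ± 1.49 CPM beside 61.6 ± 2.03 CPM in DKO (log2 -1.32 ± 0.0497, adjusted p = 1.12e-11). In DKO it rose in low glucose by 0.47 ± 0.0313 (adjusted p = 1.61e-13).

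Of 7 genes for transporters, channels and membrane lipid movement, 5 were called higher in low glucose and 1 lower. Over all genes tested the shares were 38.4% and 37.8%. Grik2 had 4.32, 3.92 and 4.54 CPM in regular medium and 8.71, 8.34 and 8.77 CPM in low glucose. Each low-glucose library was above each regular-medium library, and the change was 1.01 ± 0.0770 (2.02-fold, adjusted p = 2.27e-12). Slco1a5 had 94.1, 99.1 and 97.2 CPM in regular medium and 140 CPM in each low-glucose library (SD 0.256), a change of 0.53 ± 0.0263 (adjusted p = 2.08e-16). Its neighbour Slco1a6, a far less abundant gene by TPM (4.27 ± 0.277 against 68.6 ± 2.11), had 6.09, 6.04 and 6.74 CPM in regular medium and 5.50, 5.49 and 5.96 CPM in low glucose. That difference was not called (log2 -0.16 ± 0.0786, adjusted p = 0.0707), but it passed without the second regular-medium library (adjusted p = 0.0473) or the third low-glucose library (adjusted p = 0.0472). So of this pair of neighbours, silent together in TKO, only Slco1a5 was called higher in DKO, and the difference between their responses was not tested.

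Plscr2, a phospholipid scramblase gene, had 42.9, 45.3 and 45.3 CPM in regular medium and 58.1, 59.7 and 59.5 CPM in low glucose. The groups lay apart, with a change of 0.41 ± 0.0327 (adjusted p = 7.81e-12). Slc15a2, a proton-coupled peptide transporter gene, rose by 0.28 ± 0.0473 (adjusted p = 5.22e-06), and Cacna1h, a T-type calcium channel subunit gene, by 0.23 ± 0.0408 (adjusted p = 1.63e-05). The sodium-coupled sugar transporter gene Slc5a9 was the member called lower, with 3.71, 3.80 and 4.41 CPM in regular medium and 3.32, 3.28 and 3.07 CPM in low glucose. Its change of -0.31 ± 0.102 (adjusted p = 0.00735) was no longer called without the third regular-medium library (adjusted p = 0.0798).

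The tested relatives of these transport genes were lower in TKO to differing degrees, except for Slc15a4 in regular medium. Most of them stayed above 3 CPM. Of the scramblase list (the PLSCR genes, Xkr8 and Ano6), 5 genes other than Plscr2 were tested between the lines. All 5 were called lower in TKO in each medium, beside 33.4% of all genes tested in regular medium and 37.4% in low glucose. Plscr1 and Plscr4 are the neighbours of Plscr2 among genes that met the DKO minimum. In regular medium Plscr4 had 36.1 ± 1.44 CPM in DKO against 0.467 ± 0.178 CPM (76.8-fold lower, adjusted p = 2.94e-15), Plscr1 at 29.7 ± 0.926 and 3.61 ± 0.964 CPM (8.13-fold lower, adjusted p = 1.09e-11) and Plscr3 at 28.3 ± 0.898 and 11.3 ± 0.288 CPM (2.50-fold lower, adjusted p = 1.10e-09). Ano6, a calcium-activated scramblase gene, kept 63.8 ± 3.03 CPM in TKO beside 101 ± 1.49 CPM in DKO (log2 -0.67 ± 0.0535), and Xkr8 kept 3.99 ± 0.379 beside 5.92 ± 0.214 CPM (log2 -0.57 ± 0.108). Plscr5 had 5 counts in DKO over both media and none in TKO. Among 10 other organic anion transporter genes, 2 were tested. Slco4a1 was called lower by 1.17-fold (39.4 ± 0.833 against 33.8 ± 1.28 CPM, adjusted p = 0.000480). Slco2a1 was called lower as well (0.616 ± 0.128 against 0.0705 ± 0.00712 CPM). It had 12 counts over all TKO libraries and entered the test through its 223 DKO counts, so it could only be called lower. Slc15a4, the peptide transporter gene with counts in both lines, was not called in regular medium (20.5 ± 0.732 against 19.2 ± 2.50 CPM, adjusted p = 0.378) and was lower in TKO in low glucose (33.4 ± 1.36 against 19.5 ± 1.36 CPM, adjusted p = 4.77e-07). The difference between the lines itself differed between the media for 15 of 49 tested relatives, partners, neighbours and targeted genes, beside 29.6% of all genes tested. Counts of Slco1a5, Slco1a6 and the PLSCR genes may include reads shared by close paralogs, whose treatment in the counting is not given.

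Of 5 genes for receptors and secreted ligands, 3 were called higher and 2 lower, beside 38.4% and 37.8% of all genes tested. Dkk3, which encodes a secreted glycoprotein of the Dickkopf family, showed the largest rise of the 44. It had 5.37, 5.82 and 6.43 CPM in regular medium and 16.9, 16.7 and 15.6 CPM in low glucose. The lowest low-glucose library was well above the highest regular-medium library, and the change was 1.47 ± 0.0661 (2.78-fold, adjusted p = 2.16e-17). Cysltr1, a receptor gene for the inflammatory cysteinyl leukotrienes, rose from 46.5 ± 1.05 to 61.6 ± 1.40 CPM (log2 0.41 ± 0.0321, adjusted p = 5.55e-12). Tmem100, a transmembrane protein gene of BMP signalling, rose by 0.22 ± 0.0636 (adjusted p = 0.00303).

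Among the 2 that fell, Gpr63, which encodes an orphan G protein-coupled receptor, had 8.16, 8.40 and 8.44 CPM in regular medium and 5.92, 6.71 and 6.09 CPM in low glucose. No library of one medium reached the range of the other, and the change was -0.43 ± 0.0711 (adjusted p = 5.18e-06).

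Among 5 enzyme and lipid-handling genes, 3 were called higher and 2 lower, beside 38.4% and 37.8% of all genes tested. Gcnt2, the I-branching enzyme of glycan synthesis, had 19, 18.5 and 18.1 CPM in regular medium and 34.4, 34.5 and 32.6 CPM in low glucose. The groups were far apart, with a change of 0.87 ± 0.0420 (1.83-fold, adjusted p = 1.17e-16). B3galt5, a galactosyltransferase gene of the B3GALT family, rose by 0.16 ± 0.0363 (adjusted p = 0.000289). Aldh1a7, of the retinaldehyde dehydrogenase family, was the second most abundant member but barely moved, from 109 ± 1.92 to 115 ± 2.38 CPM (log2 0.07 ± 0.0266, adjusted p = 0.0221). That call ended with DESeq2 (adjusted p = 0.0840), with no low-count filter (0.0567), with all 12 libraries in the fit (0.285), and without the first or second regular-medium library (0.0776 and 0.0613) or the third low-glucose library (0.121). Mboat2, a lysophospholipid acyltransferase gene, fell by 0.30 on the log2 scale (SE 0.0639, adjusted p = 0.000109), and Ttpa, which encodes the transfer protein for vitamin E, fell by 0.32 (SE 0.0619, adjusted p = 3.92e-05).

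Related enzyme genes did not share one direction between the lines. Gcnt1, a core-branching relative of Gcnt2, was higher in TKO in regular medium (0.942 ± 0.168 against 13.9 ± 1.23 CPM, log2 3.89 ± 0.115, adjusted p = 6.67e-13). Of 7 other genes in the galactosyltransferase list, 5 were tested. In regular medium B3gnt2 (190 ± 2.01 against 78.8 ± 2.40 CPM) and B3gnt3 (13.0 ± 0.551 against 2.98 ± 0.270 CPM) were lower in TKO and B3gnt5 was higher (6.74 ± 0.779 against 71.9 ± 3.39 CPM). In low glucose these 3 kept their directions, and B3galt4 and B3galt6 were called higher too. Aldh1a1, a close relative of Aldh1a7, had 73 counts over the 6 DKO libraries and none in TKO, though its DKO mean was only 0.279 ± 0.0461 CPM in regular medium.

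The signalling and cytoskeletal group of 10 was mixed, with 4 called higher, 3 lower and 3 not called. Over all genes tested, 38.4% were called higher and 37.8% lower. Eps8l1, an adaptor gene of actin regulation, had 6.09, 6.39 and 5.98 CPM in regular medium and 11.5, 10.5 and 10.7 CPM in low glucose. All low-glucose values were higher, and the change was 0.83 ± 0.0673 (1.77-fold, adjusted p = 9.73e-12). Rab39b, a vesicle-traffic GTPase gene, had 18.4, 19.6 and 17.7 CPM in regular medium and 27.4, 26.8 and 27.4 CPM in low glucose (log2 0.55 ± 0.0447, adjusted p = 8.72e-12). Arhgap32, a GTPase-activating protein gene, rose by 0.53 ± 0.0792 (adjusted p = 1.01e-06), and Nlrx1, a mitochondrial NOD-like receptor gene, by 0.46 ± 0.0819 (adjusted p = 1.38e-05).

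Uaca, a coiled-coil protein with ankyrin repeats, was the member with the second largest fall. It had 137, 133 and 138 CPM in regular medium and 83.7, 76.8 and 81.2 CPM in low glucose. The media did not overlap, and the change was -0.75 ± 0.0297 (1.68-fold lower, adjusted p = 1.26e-18). Bex3, whose product binds a neurotrophin receptor, had 33.8, 35.9 and 35.8 CPM in regular medium and 25.8, 24.5 and 26.2 CPM in low glucose (log2 -0.46 ± 0.0401, adjusted p = 3.54e-11). Pak1, a kinase gene activated by Rac and Cdc42, fell by 0.15 on the log2 scale (SE 0.0406, adjusted p = 0.00208), a call that ended with all 12 libraries in the fit (adjusted p = 0.0766). Rasd1, a RAS-like GTPase gene induced by dexamethasone, was not called (log2 -0.06 ± 0.0595, adjusted p = 0.379), nor were the phosphatase gene Ptpn14 (-0.05 ± 0.0459, adjusted p = 0.324) and the ARF GTPase-activating gene Asap2 (-0.11 ± 0.103, adjusted p = 0.341).

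For these genes too, some relatives were expressed in TKO, while others, among them Pak3, had no counts in any library. Pak2 had 274 ± 6.5 CPM in the DKO line and 253 ± 4.57 CPM in the TKO line in regular medium (log2 -0.11 ± 0.0445, adjusted p = 0.0377), a call that ended under several other settings, with adjusted p up to 0.370. Of 7 RAB genes listed beside Rab39b, 5 were tested, and Rab4a and Rab42 had no counts in any library. Rab39, the closest by name, was low in both lines and higher in TKO (0.429 ± 0.0953 against 1.05 ± 0.0711 CPM, log2 1.29 ± 0.250, adjusted p = 0.000428), and Rab2a was slightly lower (log2 -0.27 ± 0.0427, adjusted p = 7.01e-05). In the BEX and TCEAL list the 1 other tested gene, Bex6, was lower in TKO by 2.0-fold (6.48 ± 0.459 against 3.23 ± 0.0893 CPM, adjusted p = 1.85e-07). Bex1, Bex4 and Tceal1 had no counts in any library. Bex2 had 14 counts in DKO and none in TKO, and Tceal8 had none in DKO and 3 in TKO.

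In the group of 6 nuclear, RNA and translation genes, 3 were called lower and 1 higher, beside 37.8% and 38.4% of all genes tested. H19, an imprinted long non-coding RNA normally expressed from the maternal chromosome, had the largest change of the 44. It had 43.0, 40.2 and 40.5 CPM in regular medium and 13.3, 12.3 and 12.8 CPM in low glucose. The highest low-glucose library was below each regular-medium library by a wide margin, and the change was -1.68 ± 0.0449 (3.21-fold lower, adjusted p = 3.18e-22). Eif5a2, a translation factor gene, had 23.2, 24.1 and 24.4 CPM in regular medium and 16.6, 17.2 and 16.8 CPM in low glucose (log2 -0.51 ± 0.0448, adjusted p = 5.87e-11). Tceal9 had 46.5, 47.9 and 48.4 CPM in regular medium and 37.1, 37.0 and 38.9 CPM in low glucose (log2 -0.34 ± 0.0346, adjusted p = 1.03e-09). Tceal9 and its neighbour Bex3 were thus both called lower, whereas of the neighbours Fndc3b and Eif5a2 the first rose and the second fell.

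Rbms3, an RNA-binding protein gene, rose by 0.38 ± 0.0463 (adjusted p = 3.29e-08). Zcchc18 (log2 0.13 ± 0.0646, adjusted p = 0.0794) and Zfp992 (0.17 ± 0.0896, adjusted p = 0.0849) were not called, though Zcchc18 passed when only genes with at least 50 counts in every library were tested (adjusted p = 0.0457). Eif5a, the paralog of Eif5a2, was not called between the lines in regular medium (1230 ± 47.3 CPM against 1260 ± 23.2 CPM in TKO, adjusted p = 0.525). In DKO it fell in low glucose as Eif5a2 did, to 742 ± 7.97 CPM (log2 -0.73 ± 0.0273, adjusted p = 4.61e-19). Other imprinted genes went both ways between the lines. Of 10 tested in regular medium, 4 were higher in TKO (Igf2r, Dlk1, Kcnq1ot1 and Peg13) and 2 lower (Grb10 and Ube3a). Dlk1 and Peg13 had 2 and 5 counts over the DKO libraries and entered the test through TKO, so they could only be called higher. Igf2, the partner of H19 at the same locus, had 7 counts in DKO and none in TKO. Igf2r went from 0.861 ± 0.145 CPM in DKO to 69.7 ± 3.15 CPM in TKO (80.7-fold higher, adjusted p = 1.04e-16).

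**Figure D4:**
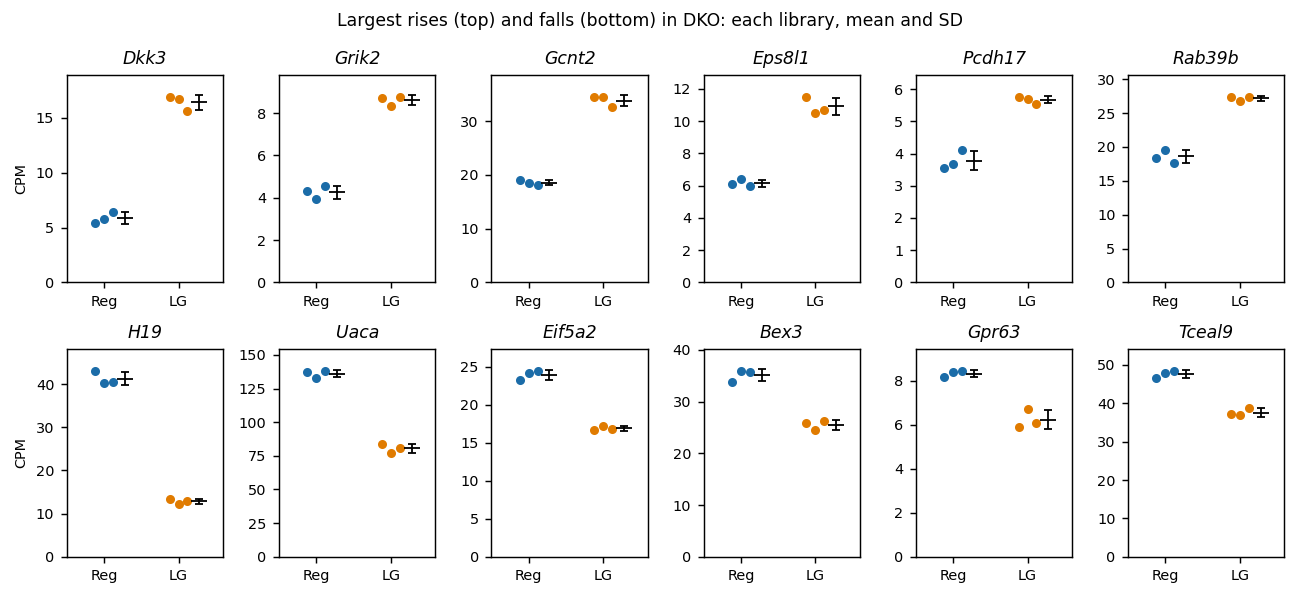
CPM of 12 members in each DKO library in regular (Reg) and low glucose (LG) medium, with the mean and SD beside the points (n = 3), each panel on its own axis from 0. The upper row has the 6 largest rises and the lower row the 6 largest falls, and in none of the 12 panels do the points of the media overlap.

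The remaining 6 members have no role that is given here. Of these, BC064078 (log2 0.16 ± 0.0489, adjusted p = 0.00461), Fam169b (0.14 ± 0.0455, adjusted p = 0.00906), Fam171b (0.28 ± 0.0972, adjusted p = 0.0102) and the predicted gene Gm2022 (0.48 ± 0.0698, adjusted p = 5.29e-07) were called higher. Gm525 was called lower (-0.31 ± 0.0790, adjusted p = 0.00108), and Lmbr1 was not called (-0.07 ± 0.104, adjusted p = 0.538). With all 12 libraries in the fit BC064078 (adjusted p = 0.0569) and Fam169b (adjusted p = 0.0513) were no longer called. Nor was Fam169b without the first low-glucose library (adjusted p = 0.0626), or Fam171b without the third regular-medium library (adjusted p = 0.0774).

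Most genes beside the members on the chromosome stayed expressed in TKO. Among genes that met the DKO minimum, 81 that are no members lay directly next to one. Of these 10 (12.3%) fell below 3 CPM in at least 1 TKO library, beside 4.16% of all 9353 such genes with a position, and the share was 8.97% at the second place and 2.60% at the third. In regular medium 49 of the 81 (60.5%) were called lower in TKO, beside 36.4% of the 9353, and in low glucose 49 as well, beside 40.2%. Of the 44 members, 29 had neighbours on both sides that kept at least 3 CPM in every TKO library. Of the 88 places beside a member, 71 held such a gene, 6 held another member and 11 held another gene below that level. Over all genes that met the DKO minimum, 95.4% kept at least 3 CPM in every TKO library. How often both neighbours of other genes did so was not counted. No test was made of these shares, and members near one another share neighbours. The genes named next were chosen after their values were seen.

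At chromosome 9 the scramblase genes formed a run. Among genes that met the DKO minimum, Plscr1, Plscr2 and Plscr4 were direct neighbours, and next came Plod2, which encodes a collagen lysyl hydroxylase. Plod2 stood at 208 ± 3.98 CPM in DKO in regular medium, with 4, 1 and 1 counts in the TKO libraries of that medium (2850-fold lower). It had 3, 1 and 3 counts in the TKO libraries in low glucose, and so missed the rule by 1 count in 1 library. In DKO low glucose raised Plscr1 by 0.39 ± 0.0368, Plscr4 by 0.74 ± 0.0343 and Plod2 by 0.51 ± 0.0250 (adjusted p = 2.45e-10, 4.87e-17 and 1.70e-16), as it did Plscr2. On either side of this run, Tbc1d2b and 1190002N15RIK had log2 ratios of TKO to DKO of -1.69 and -0.76 over both media.

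At chromosome 11, Pctp, a gene for a phosphatidylcholine transfer protein, lay between Gm525 and Tmem100. It stood at 87.5 ± 1.69 CPM in DKO in regular medium and had 3 to 8 counts in each TKO library (525-fold lower in regular medium). Beside Ttpa, Ggh, which encodes a hydrolase of folate polyglutamates, was 67.5-fold lower in TKO (9.68 ± 0.605 against 0.140 ± 0.0655 CPM). Next to B3galt5, Pcp4, a calmodulin-binding protein gene, was 357-fold lower, and next to Uaca, Lrrc49 was 25.7-fold lower. Around Gm2022, the predicted genes Gm2016 and Gm5662 were 9.94- and 1460-fold lower, and whether these predicted genes share reads with one another was not tested. By contrast, between Bex3 and Zcchc18 on the X chromosome, Morf4l2 kept 256 ± 14.5 CPM in TKO beside 324 ± 4.33 CPM in DKO, and Slc25a53, which overlaps Zcchc18, was 7.88-fold lower (30.7 ± 1.53 against 3.88 ± 0.368 CPM). On the far side of Fndc3b, Tnfsf10 was 3.84-fold lower. Rasd1, Asap2 and Eps8l1 also overlap an expressed gene (Med9, Itgb1bp1 and Rdh13), and the strand used in counting is not given. In TKO these overlapping genes kept means of 17.6, 33.0 and 16.3 CPM, while Rasd1, Asap2 and Eps8l1 had at most 3, 3 and 1 counts in any TKO library.

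**Figure D5:**
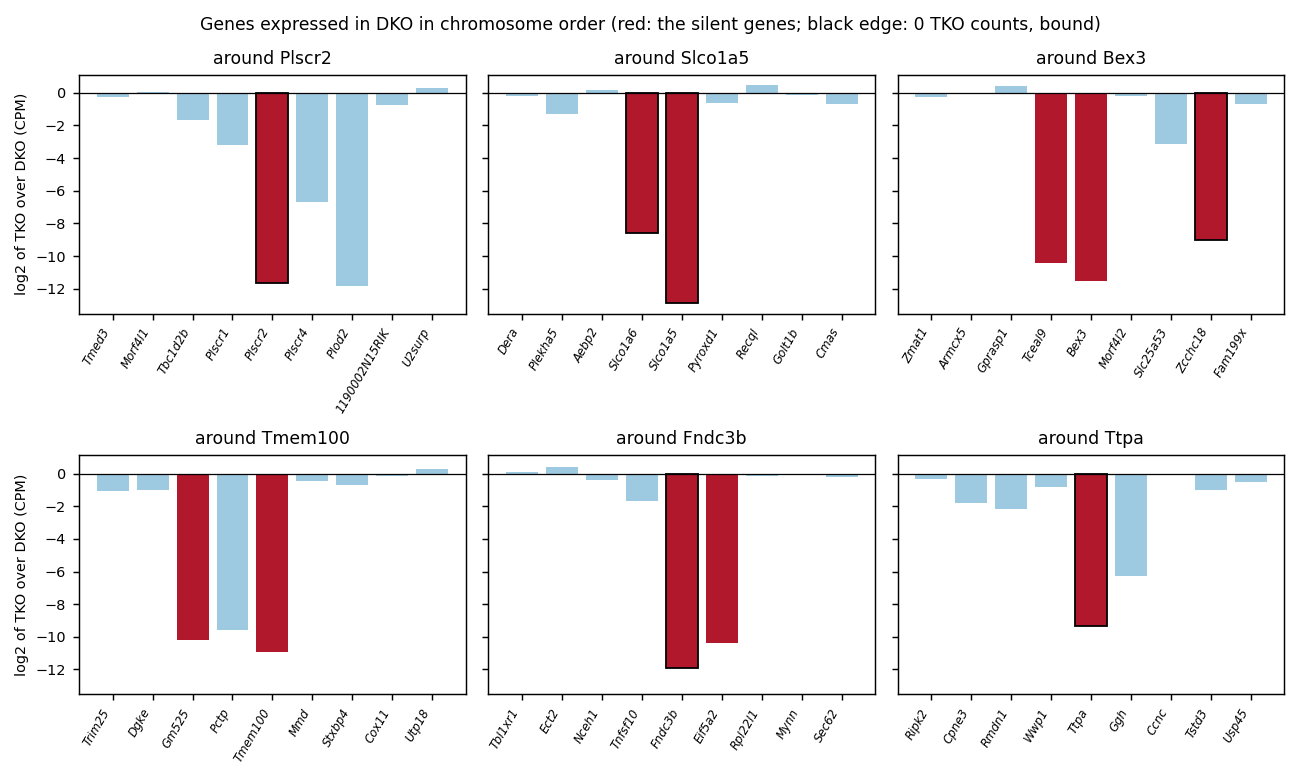
Log2 ratio of TKO to DKO (CPM over both media, bars) for genes that met the DKO minimum, in chromosome order around 6 members, with silent genes in red and other genes in blue. A black edge marks a gene with no TKO count, whose bar is a bound from 3 counts. Red bars lie between -8.58 and -12.86, Plod2 and Pctp are blue bars within that range (-11.84 and -9.59), and Plscr4 and Ggh follow at -6.72 and -6.29.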

How the data were processed

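Messenger RNA of 12 libraries (4 groups of 3) was analysed from deposited tables. The authors used STAR 2.7.3a, DESeq2 1.22.1 and mm10, per the submitters' processing notes, and Kapa strand-specific mRNA libraries, per the labels. The authors deposited whole-number counts per gene, not normalized, and a table of TPM, a length-scaled abundance in which each library sums to 1000000. The strand setting and the treatment of reads shared by paralogs are not given in the sources used here. The authors' own tables of comparisons were not used.

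The low glucose response was tested on the 6 DKO libraries alone, because the members carry almost no counts in TKO, with edgeR 4.0.16 in R 4.3.3 (filterByExpr with a count minimum of 10 and a total minimum of 15, TMM scaling, quasi-likelihood F-tests, 4 residual degrees of freedom, 11432 genes). TKO was compared with DKO, for genes that are no members, in 1 model of all 12 libraries with 4 group means (8 residual degrees of freedom, 11988 genes). Calls were made at an adjusted p under 0.05 (Benjamini-Hochberg, over all genes tested). Levels are CPM with TMM factors, from the 6 DKO libraries for members and from all 12 for other genes, as mean ± SD. The SE of a log2 change is its size divided by the square root of F. Counting intervals are exact Poisson intervals at 95%. The DKO fit was first run on simulated counts. It recovered 37 of 50 changes of 1.25-fold, 48 of 50 of 1.5-fold and all 50 of 2-fold, and called 9 unchanged genes. The simulation gave every gene the same dispersion and changed few genes, unlike these libraries, so it does not measure the error of the calls here.

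The members and gene lists were chosen with earlier results of these data known, and the role groups were set by hand. Named with values are the 10 most abundant members, the 12 largest rises and falls with no overlap between libraries, members of a family list with that family, members within 1 Mb of another, genes at the edges of the rule, and Mcl1, Bax and Bak1. Of the 12 members called lower, 11 are named, and the other members are given by role. The values of 1 member are not reported here by name and are left out of the plots, but it stays in all counts. Separate cultures for the libraries of a group are not stated in the labels, so p-values measure the spread between these libraries, which may be technical. No 2 libraries of a group agreed within sampling noise (chi-square per degree of freedom of 2.02 to 49.5).

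Positions and promoter windows are from RefSeq GRCm38.p6, taking the most upstream window of 300 bases where a gene has several (1 window used per gene, 250 bases before the start of a transcript, which need not be the first of the gene). A window was found for 28 of the 44 members (63.6%), so a comparison of base composition over all members is void and none is given.

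Alternatives were other thresholds of the rule, DESeq2 1.42.0, its size factors, other filters, other sets of libraries, a replicate block, limma 3.58.1 on log2(TPM + 1), and each library left out in turn. Those for partner and neighbour genes were chosen after seeing the data.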

Additional observations from a re-analysis of the deposited data

Results flagged for a closer look

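The interaction test (edgeR, adjusted p under 0.05) was made for 49 relatives, partners and neighbours of members and targeted genes. For 15 of them, none a member, the difference between the lines was not the same in both media. That share is close to the 29.6% called over all genes tested, so the 15 are listed as descriptions only. Values are the log2 difference of TKO from DKO in low glucose minus that in regular medium.

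Among scramblase and transporter relatives, Plscr4 was further below DKO in low glucose (-0.85, adjusted p = 0.0305). So were Slco4a1 (-0.48, adjusted p = 4.82e-05) and Slc15a4 (-0.69, adjusted p = 0.000434), whereas the deficit of Ano6 was smaller (0.23, adjusted p = 0.0364). Plscr4 was near the floor in TKO in both media (0.467 ± 0.178 and 0.427 ± 0.0341 CPM), while DKO went from 36.1 ± 1.44 to 60.2 ± 0.812 CPM. Slc15a4 rose in DKO in low glucose, from 20.5 ± 0.732 to 33.4 ± 1.36 CPM (SD, n = 3), while TKO had 19.2 ± 2.50 and 19.5 ± 1.36 CPM.

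The excess of B3gnt5 in TKO was smaller in low glucose (-0.87, adjusted p = 2.61e-05). Rab4b was higher in TKO in regular medium and not called in low glucose (-0.38, adjusted p = 0.000725).

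Of the imprinted genes, Igf2r had a larger excess in TKO in low glucose (0.51, adjusted p = 0.0397). Grb10 had a smaller deficit (0.45, adjusted p = 0.000110), and Impact a deficit called in low glucose alone (-0.44, adjusted p = 0.000950). Igf2r was low in DKO in both media (0.861 ± 0.145 and 0.620 ± 0.0274 CPM), a change not called there (edgeR, adjusted p = 0.0508). In TKO it had 69.7 ± 3.15 and 71.6 ± 2.24 CPM.

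Eif5a was higher in TKO in low glucose and not called in regular medium (0.28, adjusted p = 0.00479). The deficits of Bex6 (0.46, adjusted p = 0.0152), Itgb1 (0.22, adjusted p = 0.00578), Morf4l2 (0.32, adjusted p = 0.00755) and Tnfsf10 (0.50, adjusted p = 0.000801) were smaller in low glucose, and that of Slc25a53 was larger (-0.32, adjusted p = 0.0415).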

How the results depend on the processing

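The number of members followed the thresholds: 72 genes met the rule with a DKO minimum of 1 CPM, 21 with 10 CPM, 12 with no count in any TKO library and 93 with up to 10 counts. It was 44 with TMM-scaled CPM and 46 from the TPM table with a TKO maximum of 0.1, of which 24 were the same genes. Leaving out each library in turn gave 44 to 55, the highest without replicate 1 of TKO in low glucose. The rule must hold in every library, so leaving out a library can only keep or add genes. The 44 thus had to remain, and this does not test their stability. Members within reach of another numbered 4 at 0.1 Mb and 13 at 5 Mb.

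In DKO, 22 to 26 members were called higher and 11 to 13 lower over every setting tried, beside 3789 to 4531 and 3723 to 4405 of all genes. No called change of a named gene took the other sign. Of differences that were not called, 9 did under at least 1 setting, all without being called there, and the cause was not tested. The only member among them was Lmbr1 in DKO, at a log2 change of -0.07 with all libraries and -0.18 to 0.05 with each library left out, positive without replicate 2 in low glucose. Between the lines in regular medium, Rab2b moved from -0.02 to 0.02 with DESeq2 and with its size factors and to 0.03 with no filter and with limma. Impact moved from -0.01 to 0.04 with DESeq2 and with its size factors, 0.05 with no filter and with limma, 0.02 with at least 50 counts in every library and 0.01 with only the libraries of that medium. Gnas moved from -0.04 to 0.01 with DESeq2 and with its size factors and 0.02 with no filter and with limma. With each library left out, Rab2b ranged from -0.1 to 0.03, Impact from -0.03 to 0.01, B3galt4 from -0.34 to 0.55 (negative without replicate 1 of TKO) and Slc15a4 from -0.15 to 0.01 (positive without replicate 2 of TKO). In low glucose, Morf4l2 moved from -0.02 to 0.01 with DESeq2, with its size factors and with at least 50 counts in every library, and to 0.04 with limma. With each library left out, Morf4l2 ranged from -0.09 to 0.03, Rab14 from -0.02 to 0.09 (negative without replicate 3 of TKO) and Ube3a from -0.11 to 0.01 (positive without replicate 1 of DKO). Single calls of members that ended or appeared are given beside the genes. Among relatives, partners and neighbours, a call ended or appeared under at least 1 setting for 4 genes in regular medium and 6 in low glucose.

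The replicate numbers did not pair the libraries (correlations of same-numbered deviations of -0.02, 0.014 and -0.021 in DKO). With the replicate block, 25 members were called higher and 12 lower, as without it, beside 4349 and 4296 of all genes. Between the lines the block gave 3467 higher and 4075 lower in regular medium and 4506 and 4532 in low glucose. The genes next to a member called lower then numbered 50 and 49. Depth limits what silent can mean, since the smallest TKO library held 22190736 counts and a count of 0 there allows up to 3.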
